A study of Homo sapiens with 3 samples.

Results

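The collagen chain genes were taken as the protein-coding genes of the deposited count table whose symbol is COL, a number, A and a number. This gave 44 genes among 60554 listed genes. RNA came from 3 stable lines of KYSE30, a human cell line from a squamous carcinoma of the esophagus, with 1 library each. The lines carried a first shRNA against SNORD12B (labelled shRNA 1), a second shRNA against SNORD12B (labelled shRNA 2) or the control construct in the pLKO.1-blast vector, and all were selected with blasticidin. For the control, one label gives a vector and the protocol a scrambled shRNA with no target. SNORD12B encodes a box C/D small nucleolar RNA, and the design asks what differs when it is depleted. A stable line of this kind is a selected population, and no line had a second culture.

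Collagens are the main structural proteins of the extracellular matrix. Their chains carry long arrays of glycine-X-Y repeats, through which chains wind into rope-like helices. Fibrillar collagens assemble into cross-banded fibrils. Type IV collagens form the network of basement membranes. FACIT collagens, whose name stands for fibril-associated collagens with interrupted helices, sit on fibril surfaces. Transmembrane collagens span the plasma membrane of the cell that makes them. In squamous epithelium, type XVII collagen of the hemidesmosome and type IV and type VII collagen of the basement membrane zone anchor the basal cells.

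The exon structure of the genes differed between the classes. Fibrillar genes are known for exons of 54 bases, a length that holds 6 glycine-X-Y units. Among the 11 fibrillar genes, the GENCODE 29 transcript with the longest coding sequence had between 21 and 33 internal coding exons of exactly 54 bases, with a median of 29. The 6 type IV genes had between 1 and 3 such exons, the 4 transmembrane genes between 3 and 4, and the 10 FACIT genes between 4 and 28. The sequences below show the first such exon that starts in frame with glycine in 3 fibrillar chains measured here and in 1 type IV chain. Capitals mark the first codon of each glycine-X-Y unit, which begins with GG.
COL5A1 exon: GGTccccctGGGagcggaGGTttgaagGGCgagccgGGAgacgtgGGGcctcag
COL5A2 exon: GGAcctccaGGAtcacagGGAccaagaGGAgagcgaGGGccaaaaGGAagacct
COL1A1 exon: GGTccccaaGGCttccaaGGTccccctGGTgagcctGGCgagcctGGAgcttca
COL4A1 exon: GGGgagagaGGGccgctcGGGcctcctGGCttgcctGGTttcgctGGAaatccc
These exons lie in hg38 at chr9:134753850-134753903 on the plus strand for COL5A1, chr2:189097277-189097330 on the minus strand for COL5A2, chr17:50197949-50198002 on the minus strand for COL1A1 and chr13:110211869-110211922 on the minus strand for COL4A1. COL17A1, the collagen gene with the most counts, had 3 exons of 54 bases, and none of them held the repeat in this frame.

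**Figure D1:**
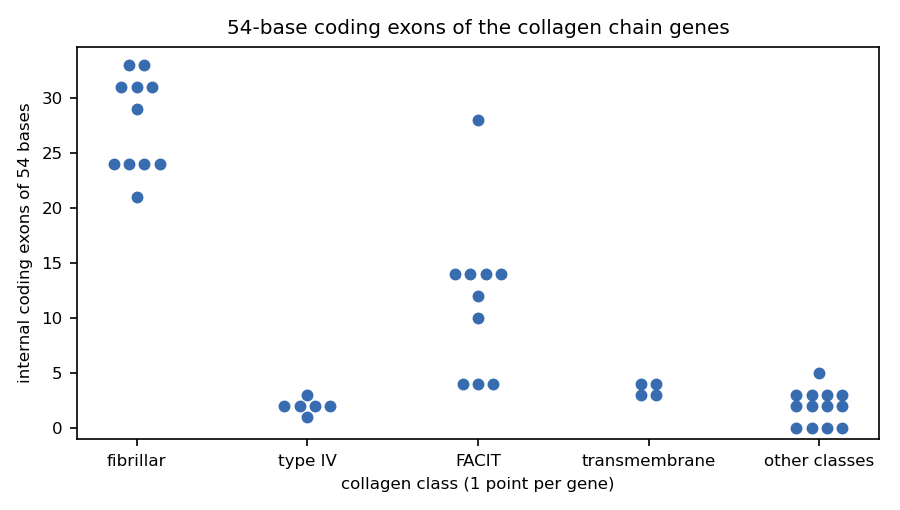
Number of internal coding exons of 54 bases (vertical axis) in each collagen chain gene, by class (horizontal axis, 1 point per gene). The fibrillar genes lie between 21 and 33, and the type IV genes between 1 and 3.

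Total counts were 15146805 for the label shRNA 1, 17336936 for the label shRNA 2 and 15473922 for the control. SNORD12B itself had 15, 1 and 7 counts in that order, so the label of shRNA 1 goes against its count, and counts this low settle little. No library was replicated. The test, edgeR's quasi-likelihood test, therefore takes its spread from the 2 shRNA lines alone and assumes that the lone control varies like them. Each gene's spread is also drawn towards a trend over all tested genes. CPM below are counts relative to library size after TMM scaling, TPM also take exonic length into account, and intervals are exact 95% intervals that cover counting error only. KRT5, a basal squamous keratin, had 3, 2 and 1 counts. TP63, the squamous factor p63, stood at 80.6, 135 and 157 CPM. CDH1, the gene of E-cadherin, stood at 449, 678 and 633 CPM. Of 10 fibroblast markers, 8, 6 and 8 had 0 counts in that order. Among them were DCN, LUM, PDGFRA, POSTN and THY1 in all 3 libraries, where the exact upper limit of 0 counts was at most 0.243 CPM. The list summed to 9.47, 13.8 and 16 CPM, nearly all of it COL1A1. The 4 endothelial markers summed to 0.921, 5.81 and 3.71 CPM and the 4 leukocyte markers to 1.18, 1.9 and 1.95 CPM. Most of the first sums was CDH5, at 0.855, 5.23 and 2.6 CPM. Most of the second was CD68, at 1.12, 1.84 and 1.76 CPM. Fewer cells that express a gene and less RNA of it per cell cannot be told apart in bulk RNA.

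Collagen chains together took 0.137% of the counts in the library labelled shRNA 1 (exact binomial interval 0.135% to 0.139%), 0.165% in the library labelled shRNA 2 (0.163% to 0.167%) and 0.213% in the control (0.21% to 0.215%). Both shRNA libraries thus held a smaller collagen share than the control, beyond counting error. COL17A1 alone made up 61.3% of the collagen counts with the label shRNA 1, 63.7% with the label shRNA 2 and 64% in the control. Type IV chains followed with 23.4%, 22.2% and 22.6% of collagen counts. The fibrillar chains took 2.83%, 2.25% and 1.42%, and FACIT chains 0.852%, 1.31% and 1.02%. The fibrillar share was larger in both shRNA libraries than in the control, while the collagen total was smaller. Without COL5A1, a sum added after the data were seen, fibrillar chains summed to 25.5 and 27.5 CPM in the shRNA libraries. The control had 28.3 CPM, so in CPM they did not stand above it. Their share of collagen counts without COL5A1 was 1.87% and 1.67%, against 1.32% in the control. That share was thus still larger in both shRNA libraries. Per length, COL17A1 ranked first among the 44 chains in every library, at 403, 498 and 633 TPM. COL4A2, COL4A5 and COL18A1 held the next places in all 3 libraries, between 36.3 and 72.8 TPM, and COL4A1 ranked 5 at 23.1, 12.7 and 30.6 TPM.

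**Figure D2:**
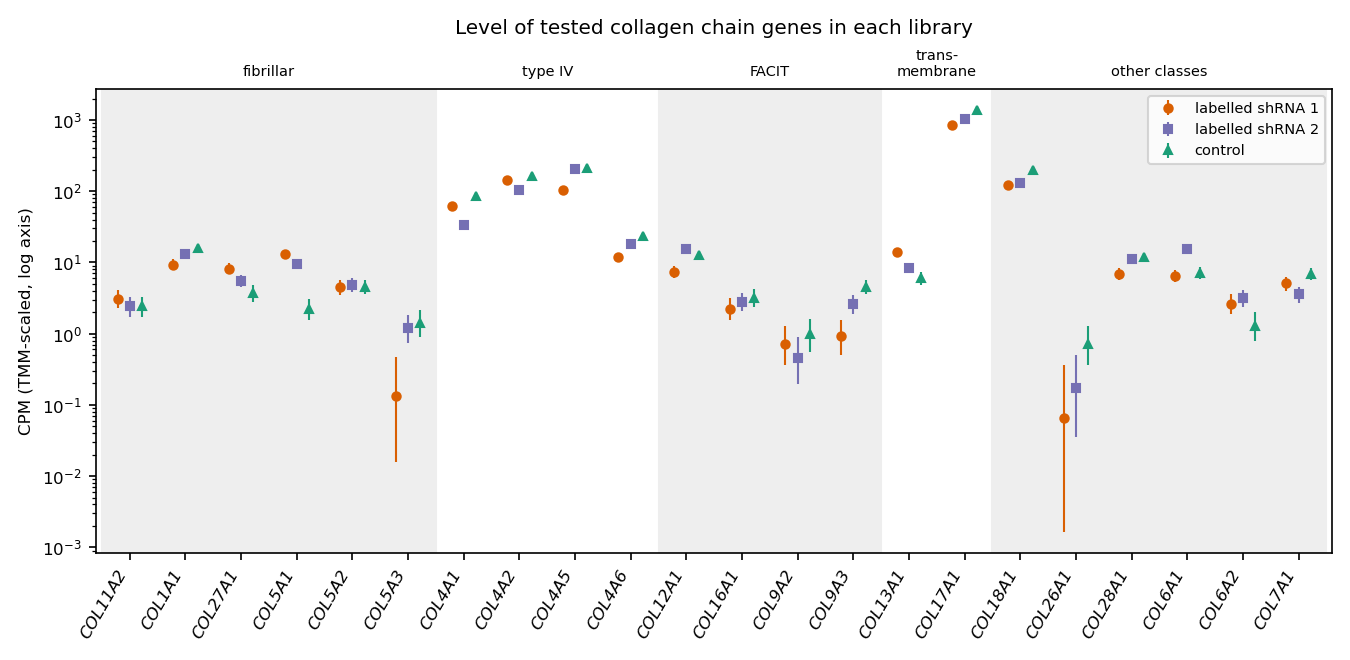
Level of the 22 tested collagen chain genes in CPM (vertical axis, log scale) in the libraries labelled shRNA 1 and shRNA 2 and in the control, by class. Bars are exact 95% counting intervals. COL17A1 lies at 838 and 1048 CPM against 1373 CPM, and COL5A1 stands at 13.1 and 9.54 CPM against 2.21 CPM in the control.

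Of the 44 genes, 22 passed the filter on low counts and were tested, 18 had a few counts and 4 had none. No collagen was called at an adjusted p under 0.05 by the quasi-likelihood test of edgeR, which called 0 of 17801 tested genes, 0% higher and 0% lower. With RLE scaling it also called 0% in each direction. At an unadjusted p under 0.05, COL5A1 was the single collagen on the higher side, where 0.41% of all tested genes lay, and 0 collagens lay on the lower side, where 0.921% of all tested genes lay. As sizes without a test, on the log2 scale of scaled counts with a prior count of 2, which pulls ratios of low counts towards 1, 3 of the 22 collagens were at least 2-fold higher in the library labelled shRNA 1 than in the control and 4 were at least 2-fold lower, against 3.74% and 5.58% of all tested genes. In the library labelled shRNA 2 these counts were 3 and 2, against 2.98% and 3.46% of all tested genes. Both ratios share the control. COL5A1 was at least 2-fold higher in both shRNA libraries, as were 0.977% of all tested genes, and COL26A1 was at least 2-fold lower in both, as were 1.19%. By the plain ratio of counts, COL6A2 was also at least 2-fold higher in both libraries, and COL9A2 at least 2-fold lower in the library labelled shRNA 2. COL26A1 had 1 and 3 counts in the libraries labelled shRNA 1 and shRNA 2, against 11 counts in the control. It passed the filter through the control alone, so a lower ratio was built into its selection.

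Below the control lay 17 of the 22 tested collagens in the library labelled shRNA 1 and 14 of 22 in the library labelled shRNA 2, against 48.5% and 50.3% of all tested genes. Above it lay 5 and 8, against 51.5% and 49.7%. Both shRNA libraries were below the control for 14 collagens, as for 27% of all tested genes, and both above it for 5, as for 28.2%. The median collagen had a log2 ratio of -0.48 with the label shRNA 1 and -0.20 with the label shRNA 2, whereas all tested genes had medians of 0.01 and -0.00. By class, the median log2 ratios were -0.72 and -0.50 for 4 tested type IV chains and -0.63 and -0.48 for 4 tested FACIT chains. They were 0.16 and 0.04 for 6 tested fibrillar chains and 0.24 and 0.05 for 2 tested transmembrane chains. These are descriptions of small sets, and differences between classes were not tested. The squamous epithelium markers, 10 genes, summed to 864 and 1264 CPM in the shRNA 1 and shRNA 2 libraries and to 1337 CPM in the control. Most of each sum was CDH1 and EPCAM, the latter at 208 and 189 CPM against 214 CPM. The lowest fitted fold changes were those of SOX2, at 12.2 and 38.9 CPM against 104 CPM, and KRT17, at 15.5 and 52.9 CPM against 94.6 CPM. The 9 markers that were tested had median log2 ratios of -0.72 and -0.18, with 8 and 6 below the control and 1 and 3 above it. The part of that difference in the collagen values was not tested.

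**Figure D3:**
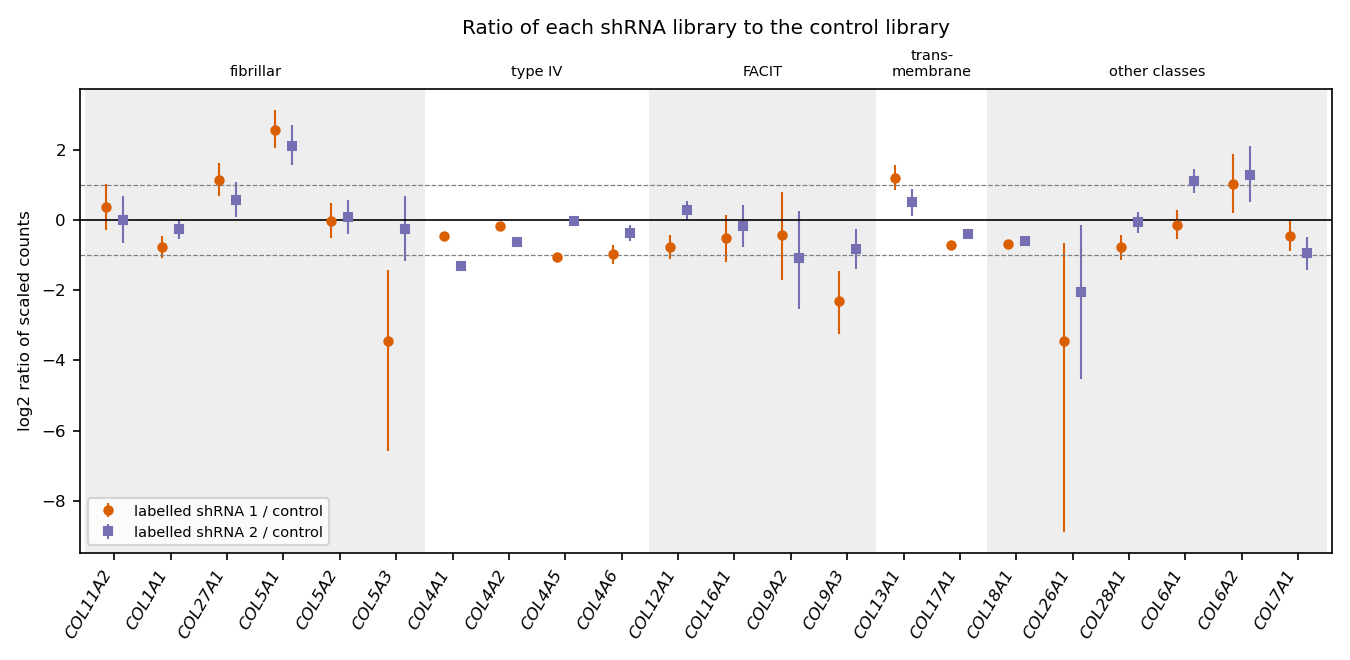
Log2 ratio of scaled counts (vertical axis) of each tested collagen chain gene in the libraries labelled shRNA 1 and shRNA 2 over the control, by class. Bars are exact 95% counting intervals, and dashed lines mark 2-fold. All 4 type IV chains lie below the control line. COL5A1 lies above the upper dashed line in both libraries, as does COL6A2, with count ratios of 2.02 and 2.43.

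Among the fibrillar chains, COL5A1 was far above the control with both shRNAs while its partner COL5A2 was not. COL5A1 (ENSG00000130635.15, hg38 chromosome 9, 134641774 to 134844843) encodes the alpha-1 chain of type V collagen, which nucleates collagen fibrils and regulates their diameter. It had 199 counts under the label shRNA 1, 166 under the label shRNA 2 and 34 in the control. The count ratio to the control was 5.91 (4.09 to 8.78) for the label shRNA 1 and 4.31 (2.97 to 6.43) for the label shRNA 2, so both intervals lay above a ratio of 1. Among the 44 chains it ranked 9 and 12 per length in the shRNA libraries and 22 in the control. The log2 fold change was 2.35 (SE 0.52), and edgeR's test gave adjusted p = 0.93. The call depended on the test: edgeR's likelihood ratio test gave adjusted p = 0.0459 and its main test without a filter 0.0281, whereas DESeq2 gave 0.171 and limma-voom 1.00. Of all genes, the likelihood ratio test called 0.0112% higher and 0.202% lower, and the test without a filter 0.0136% higher and 0.126% lower. DESeq2 called 0.00562% higher and 0.0786% lower, limma-voom 0% higher and 0.00562% lower, and the 5 CPM filter 0% higher and 0.00793% lower. COL5A1 was the single collagen called in the first pair of settings, and 0 collagens were called in the other 3.

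COL5A2 encodes the alpha-2 chain, which joins COL5A1 chains in the common form of type V collagen. It stood at 4.47 and 4.83 CPM in the shRNA 1 and shRNA 2 libraries, against 4.56 CPM in the control. Its ratio to the control was 0.981 (0.692 to 1.39) and 1.06 (0.763 to 1.48). The ratio of COL5A1 to COL5A2 per exonic length was therefore 1.87 (1.41 to 2.5) and 1.26 (0.966 to 1.66) in the shRNA libraries, against 0.311 (0.2 to 0.474) in the control. Counts per exonic base were thus lower for COL5A1 than for COL5A2 in the control, and higher in the library labelled shRNA 1. COL5A3, the third type V chain, had 2 counts with the label shRNA 1, 21 with the label shRNA 2 and 22 in the control. Its ratio was 0.0918 (0.0105 to 0.374) with the label shRNA 1 and 0.843 (0.441 to 1.61) with the label shRNA 2. Only the first of these libraries stood apart from the control, and the log2 fold change of -1.06 (SE 1.06) had adjusted p = 1.00 by edgeR. A gene on the opposite strand, with 0, 1 and 4 counts, overlaps 4% of the exonic bases of COL5A3.

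COL1A1, which encodes the alpha-1 chain of type I collagen, had 142, 230 and 245 counts in the libraries labelled shRNA 1 and shRNA 2 and the control. COL1A2, which encodes the alpha-2 chain of the same molecule, had 0 counts in each, an exact upper limit of 0.243, 0.212 and 0.24 CPM. COL1A1 was thus measured without its usual partner chain in all 3 lines. Its ratio to the control was 0.585 (0.473 to 0.723) and 0.829 (0.69 to 0.997). COL27A1, a fibrillar chain known from cartilage, stood at 8.15 and 5.52 CPM in the shRNA libraries against 3.71 CPM in the control, with ratios of 2.2 (1.59 to 3.06) and 1.49 (1.06 to 2.1). Both shRNA libraries were above the control, by unequal amounts. COL11A2, a type XI chain, stood at 3.09 and 2.41 CPM against 2.41 CPM, and its intervals of 0.816 to 2.03 and 0.629 to 1.6 include a ratio of 1. Neither COL1A1, COL27A1 nor COL11A2 passed the adjusted threshold in edgeR's test.

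The 300 bases around the start of COL5A1 (chr9:134641553-134641852, plus strand) and COL17A1 (chr10:104085831-104086130, minus strand) are shown because these chains gave the largest ratio and the highest level. Both windows are from RefSeq in hg38, with 250 bases before and 50 after the start. Capitals mark matches on either strand to the GC box GGGCGG, to the CCAAT box, to the TATA box TATAAA or to the AP-1 motif TGANTCA.
COL5A1 window: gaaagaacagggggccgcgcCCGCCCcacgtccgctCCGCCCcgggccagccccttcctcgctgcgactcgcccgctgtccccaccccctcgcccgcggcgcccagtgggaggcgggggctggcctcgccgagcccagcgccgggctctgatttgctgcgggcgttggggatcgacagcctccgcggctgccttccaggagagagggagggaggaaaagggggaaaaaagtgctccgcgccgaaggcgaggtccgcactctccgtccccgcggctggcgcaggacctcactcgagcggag
COL17A1 window: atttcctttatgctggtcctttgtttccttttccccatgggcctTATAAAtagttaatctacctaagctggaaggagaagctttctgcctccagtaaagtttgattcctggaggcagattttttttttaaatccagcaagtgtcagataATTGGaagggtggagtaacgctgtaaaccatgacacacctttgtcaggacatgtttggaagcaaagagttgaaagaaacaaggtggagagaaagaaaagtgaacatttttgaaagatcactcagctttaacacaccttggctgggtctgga
The COL5A1 window held 2 matches to GGGCGG, and the COL17A1 window held 1 match to TATAAA and 1 to CCAAT. Of all 35116 RefSeq windows of this length, 45% held GGGCGG, 34.6% CCAAT, 11.5% TATAAA and 7.71% TGANTCA. Of the 44 windows of 32 collagen genes, 54.5% held GGGCGG, 31.8% CCAAT, 18.2% TATAAA and 2.27% TGANTCA. A match is a description of letters and says nothing on whether a factor binds.

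The type IV chains of the basement membrane were lower than or level with the control in both shRNA libraries. They are encoded as head-to-head gene pairs that share the region between their starts. COL4A1 and COL4A2, which make the common network of almost all basement membranes, start 127 bases apart in RefSeq. In the gene models behind the counts, their spans overlap from 110305812 to 110307149 on chromosome 13, though not in exonic bases. The RefSeq starts of COL4A6 and COL4A5 are 380 bases apart at the nearest, and those of COL4A4 and COL4A3 419 bases. The window of COL4A2 (chr13:110307034-110307333, plus strand) is shown because COL4A1 starts within it on the other strand. Capitals mark the 126 bases between both starts.
COL4A2 window: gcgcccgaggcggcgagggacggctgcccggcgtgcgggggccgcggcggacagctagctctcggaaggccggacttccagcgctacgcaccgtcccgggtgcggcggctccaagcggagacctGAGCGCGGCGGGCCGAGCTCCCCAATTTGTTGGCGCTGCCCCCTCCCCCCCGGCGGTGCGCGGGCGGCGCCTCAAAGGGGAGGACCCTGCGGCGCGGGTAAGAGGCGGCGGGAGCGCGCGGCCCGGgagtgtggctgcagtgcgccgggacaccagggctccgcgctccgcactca
This stretch is 80.2% G or C and holds 1 match to CCAAT, 1 to GGGCGG and none to TATAAA or TGANTCA.

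COL4A1 stood at 61.2 CPM with the label shRNA 1, 34 CPM with the label shRNA 2 and 84.6 CPM in the control. Its ratio to the control was 0.723 (0.664 to 0.787) with the label shRNA 1 and 0.402 (0.364 to 0.444) with the label shRNA 2. COL4A2 stood at 144 and 104 CPM against 162 CPM, with ratios of 0.889 (0.839 to 0.942) and 0.643 (0.604 to 0.683). For both genes of this pair the library labelled shRNA 2 was the lowest and the control the highest. COL4A1 stood further below the control than COL4A2. The ratio of COL4A1 to COL4A2 per exonic length was 0.452 (0.418 to 0.489) and 0.348 (0.317 to 0.382) in the libraries labelled shRNA 1 and shRNA 2, and 0.556 (0.52 to 0.595) in the control. The 3 counting intervals did not overlap. The log2 fold change was -0.83 (SE 0.39) for COL4A1 and -0.39 (SE 0.32) for COL4A2, each with adjusted p = 1.00 by edgeR. COL4A2 is overlapped by antisense exons of COL4A2-AS1 on 1.09% of its exonic bases.

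COL4A5 and COL4A6, the pair on chromosome X that forms the network of epithelial and smooth muscle basement membranes, were lowest in the other shRNA library. COL4A5 stood at 103 CPM with the label shRNA 1, 208 CPM with the label shRNA 2 and 215 CPM in the control. Its ratio to the control was 0.478 (0.45 to 0.508) with the label shRNA 1 and 0.969 (0.924 to 1.02) with the label shRNA 2. COL4A6 stood at 11.9 and 18.1 CPM against 23.4 CPM, with ratios of 0.508 (0.422 to 0.609) and 0.773 (0.662 to 0.901). The ratio of COL4A6 to COL4A5 per length was 0.109 (0.093 to 0.127) and 0.0819 (0.0728 to 0.0919) in the shRNA libraries and 0.103 (0.0919 to 0.115) in the control, so the intervals of the label shRNA 1 and the control overlapped. Between the shRNA lines, COL4A1 was 1.8 times as high (1.62 to 2) and COL4A5 0.494 times as high (0.465 to 0.524) with the label shRNA 1 as with the label shRNA 2. The pairs on chromosomes 13 and X thus differed in opposite directions between the shRNA lines. COL4A3 and COL4A4, whose chains form the network of the kidney filter with COL4A5, had at most 3 counts in any library.

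**Figure D4:**
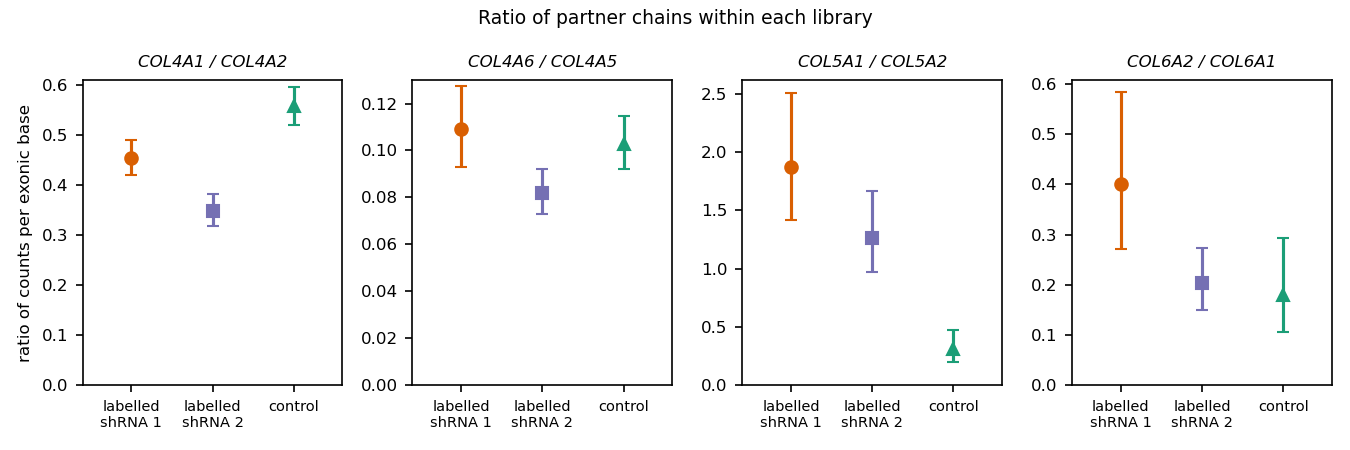
Ratio of counts per exonic base between partner chains (vertical axes, a separate scale per panel) in the libraries labelled shRNA 1 and shRNA 2 and in the control. Bars are exact 95% counting intervals. COL4A1 over COL4A2 is 0.452 and 0.348 against 0.556 in the control, and COL5A1 over COL5A2 is 1.87 and 1.26 against 0.311.

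Of the tested FACIT chains, COL9A3 had the lowest fitted fold change, and in the library labelled shRNA 2 COL9A2 had the lower ratio. It encodes a chain of type IX collagen, which decorates cartilage fibrils, and had 14 counts with the label shRNA 1, 45 with the label shRNA 2 and 70 in the control. Its ratio to the control was 0.202 (0.105 to 0.362) and 0.568 (0.381 to 0.837), so the shRNA libraries were below the control to unequal degrees. Exons of TCFL5 on the opposite strand, with 585, 636 and 653 counts, overlap 0.93% of the exonic bases of COL9A3. The log2 fold change was -1.36 (SE 0.67), with adjusted p = 1.00 by edgeR. Its partner COL9A2 had 11, 8 and 15 counts, with ratios of 0.741 (0.308 to 1.73) and 0.471 (0.173 to 1.18), and COL9A1 had 0 counts in each library. COL12A1, the chain of type XII collagen, stood at 7.43 CPM with the label shRNA 1, 15.4 CPM with the label shRNA 2 and 12.8 CPM in the control. The shRNA libraries lay on opposite sides of the control, with ratios of 0.582 (0.458 to 0.738) and 1.21 (1.00 to 1.46). COL16A1 stood at 2.24 and 2.82 CPM against 3.19 CPM, and its intervals of 0.439 to 1.11 and 0.582 to 1.34 include a ratio of 1. PEF1-AS1 on the opposite strand, with 7, 18 and 6 counts, overlaps 1.26% of the exonic bases of COL16A1.

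The tested transmembrane chains stood on opposite sides of the control. COL17A1 (ENSG00000065618.16, hg38 chromosome 10, 104031286 to 104086002), also known as the bullous pemphigoid antigen BP180, links keratins through the hemidesmosome to the basement membrane. It stood at 838 CPM with the label shRNA 1, 1048 CPM with the label shRNA 2 and 1373 CPM in the control. The ratio to the control was 0.611 (0.597 to 0.624) and 0.764 (0.749 to 0.779), from 12745, 18236 and 21087 counts. The log2 fold change was -0.54 (SE 0.29), with adjusted p = 1.00 by edgeR. COL13A1, a transmembrane collagen of cell-matrix junctions and the neuromuscular junction, stood at 13.8 and 8.45 CPM in the shRNA 1 and shRNA 2 libraries, against 5.99 CPM in the control. Its ratios of 2.31 (1.8 to 2.98) and 1.41 (1.08 to 1.85) lay above the control, with a log2 fold change of 0.89 (SE 0.48) and adjusted p = 1.00 by edgeR. In each of the shRNA libraries COL13A1 stood higher and COL17A1 lower than in the control. COL23A1 and COL25A1 had at most 3 counts in any library.

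Outside these classes, COL18A1, whose chain is the precursor of endostatin and sits in basement membranes, had 1861 and 2261 counts in the libraries labelled shRNA 1 and shRNA 2 and 3048 in the control. Its ratios of 0.617 (0.582 to 0.654) and 0.655 (0.62 to 0.692) had overlapping intervals, with a log2 fold change of -0.65 (SE 0.30) and adjusted p = 1.00 by edgeR. Exons of SLC19A1 on the opposite strand overlap 16.43% of its exonic bases. Counting was done by strand (strand option 1), so the COL18A1 count stays uncertain if the libraries themselves did not keep the strand. SLC19A1 had 1220, 802 and 1303 counts in the same order. COL7A1, which forms the anchoring fibrils below squamous epithelium, stood at 5.06 and 3.56 CPM against 6.9 CPM in the control, with ratios of 0.734 (0.54 to 0.993) and 0.517 (0.371 to 0.713). Both shRNA libraries lay below the control for it.

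Type VI collagen forms beaded filaments from several different chains. Its chains COL6A1 and COL6A2 both stood above the control in the library labelled shRNA 2. COL6A1 stood at 6.51 CPM with the label shRNA 1, 15.4 CPM with the label shRNA 2 and 7.16 CPM in the control. Its ratio was 0.909 (0.686 to 1.2) with the label shRNA 1 and 2.14 (1.71 to 2.7) with the label shRNA 2, so it was apart from the control in the second library only. COL6A2 had 40, 55 and 20 counts, with ratios of 2.02 (1.15 to 3.65) and 2.43 (1.43 to 4.28). In the library labelled shRNA 1 the intervals of COL6A1 and COL6A2 overlapped. COL6A2 over COL6A1 per length was 0.401 (0.27 to 0.584) and 0.204 (0.15 to 0.274), against 0.18 (0.106 to 0.292) in the control. The interval of each shRNA library overlapped that of the control. COL6A3, the long chain, had 6, 1 and 4 counts. COL28A1, a chain related to type VI collagen by its von Willebrand factor domains, stood at 6.84 and 11.2 CPM against 11.8 CPM, with ratios of 0.58 (0.452 to 0.743) and 0.951 (0.773 to 1.17). COL6A1, COL6A2 and COL28A1 did not pass the adjusted threshold in edgeR's test.

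The 22 genes that were not tested had at most 6 counts in any library and at most 11 over all 3. COL1A2, COL9A1, COL14A1 and COL19A1 had none. COL3A1, the type III chain of fibroblasts, had 2, 1 and 0 counts, COL2A1 of cartilage 0, 3 and 2 and COL10A1 of growth plate cartilage 3, 3 and 1. Differences between libraries in these genes were not detectable at this depth.

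Genes that make, modify, bind or degrade collagen were read from the same fit. The test of edgeR called 0 members of these lists, and 0% of all 17801 tested genes in either direction. At an unadjusted p under 0.05, 0 members lay on either side, against 0.41% of all tested genes higher and 0.921% lower. In lists this short, counts of 0 say little about these genes. Of 32 biosynthesis genes, 27 were tested, with a median log2 ratio of 0.01 under the label shRNA 1 and -0.12 under the label shRNA 2. COLGALT2, a collagen galactosyltransferase, stood at 0.46 and 0.977 CPM against 1.5 CPM in the control, and PPIB, a prolyl isomerase of procollagen folding, at 262 and 258 CPM against 316 CPM. MIA2, which takes part in the export of large cargo from the endoplasmic reticulum, stood at 3.49 and 5.63 CPM against 2.41 CPM. LOX, the collagen crosslinking enzyme lysyl oxidase, stood at 1.58 and 0.575 CPM against 0.586 CPM, so the library labelled shRNA 1 alone was higher.

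Of 10 collagen receptor genes, 7 were tested, with medians of 0.13 and 0.07. DDR1, a collagen receptor tyrosine kinase, stood at 443 and 643 CPM against 616 CPM in the control, and MRC2, an endocytic collagen receptor, at 1.25 and 1.61 CPM against 2.15 CPM. ITGA1 and ITGB1, subunits of a collagen-binding integrin, stood at 5.39 and 4.31 CPM against 4.1 CPM and at 390 and 414 CPM against 352 CPM. Of 7 collagen-degrading enzymes, 5 were tested, with medians of -0.13 and -0.11. MMP14, a membrane-bound collagenase, stood at 61.7 and 92 CPM against 120 CPM, and MMP1, the interstitial collagenase, at 0.526 and 1.38 CPM against 1.5 CPM. MMP2 and MMP9, the gelatinases, stood at 46.7 and 26.7 CPM against 27.6 CPM and at 1.51 and 0.575 CPM against 0.781 CPM.

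Of 16 genes for assembly partners in fibrils, hemidesmosomes and basement membranes, 12 were tested, with medians of -0.01 and 0.18. LAMA3, a laminin gene whose product binds the hemidesmosome from the matrix side, stood at 588 and 613 CPM against 428 CPM in the control. It thus stood above the control in both shRNA libraries, while COL17A1 stood below it. FN1, which encodes fibronectin, stood at 30 and 55.8 CPM against 62.8 CPM, and NID2, a nidogen that links laminin to type IV collagen, at 0.855 and 0.632 CPM against 1.37 CPM. LAMA3 had a log2 fold change of 0.49 (SE 0.30) and FN1 of -0.55 (SE 0.41), each with adjusted p = 1.00 by edgeR.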

How the data were processed

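RNA of 3 stable KYSE30 lines was compared, with 1 library per line. The authors deposited raw counts per gene, made with featureCounts 1.6.4 and strand option 1 and hg38 genes, as the file headers state. The deposited counts are not normalized. The submitters' processing notes name TopHat2, HTSeq and hg19 instead, and the aligner behind these counts is not given in these sources. All 52179 identifiers shared with GENCODE 29 in the same version had the same start and end there. Symbols matched for 56558 of 60554 genes by identifier, and gene types came from GENCODE 29. The members, classes and gene lists were chosen with earlier results of these data known.

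Genes with at least 0.646 CPM in 1 library and 15 counts in all were kept (filterByExpr, 17801 genes). They were scaled by TMM and tested by edgeR 4.0.16 (quasi-likelihood, two-sided, Benjamini-Hochberg over all tested genes, 0.05) in R 4.3.3. The SE is the absolute log2 fold change over the square root of F. The residual degrees of freedom were 1. The fit was also run on simulated counts, and the outcome is not reported here. P-values and SE rest on the spread between the 2 shRNA lines, not between cultures, and not on a gene's own 2 values alone. Each gene's spread was drawn towards a trend over all tested genes, with median prior degrees of freedom of 8.35. For single libraries, log2 ratios were taken from log-CPM (prior count 2). Interval limits are exact Poisson, conditional or binomial limits, also for a count of 0. Members with at least 1 CPM in 1 library are described one by one, and of each other list the 2 largest log2 fold changes in each direction among members with at least 1 CPM. The rule was written for lists of biosynthesis, receptors, collagenases and regulators, and the list of assembly partners stands in place of regulators. One assembly partner that the rule names is not reported here. The table has no library replicate, and depth limits chains with few counts. Exonic lengths came from the deposited table and cover all annotated exons of a gene, so they need not equal the length of a transcript. Alternatives were RLE scaling, no scaling, DESeq2 1.42.0, limma-voom 3.58.1, the likelihood ratio test, filters, prior counts and leaving out either shRNA line. Promoter windows matched 32 of 44 genes by symbol.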

Additional observations from a re-analysis of the deposited data

How the results depend on the processing

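The count of genes called, 0 with edgeR's quasi-likelihood test, was 0 with RLE scaling, 1 with the 5 CPM filter, 41 with no filter, 38 with the likelihood ratio test, 1 with limma-voom and 15 with DESeq2. The count of collagens called was 1 with no filter and 1 with the likelihood ratio test, which was COL5A1 in each, and 0 in the others. One residual degree of freedom limits all of these tests. Without either shRNA line, the number of collagens at least 2-fold higher was 3 to 3, and the number at least 2-fold lower 2 to 4, against 1 each with both lines. The 5 CPM filter left 0 of the lower ones, since it removed COL26A1. Medians of a class moved with its members. The 5 CPM filter left COL1A1, COL5A1 and COL27A1 of the fibrillar chains and COL12A1 alone of the FACIT chains. The FACIT values under this filter are thus those of COL12A1. With it the medians became 1.11 and 0.56 for fibrillar chains, and -0.77 and 0.28 for FACIT chains, in the libraries labelled shRNA 1 and shRNA 2. With no filter they became 0.15 for fibrillar, -0.24 for type IV, 0.56 for transmembrane and -0.060 for the other chains with the label shRNA 2, and -0.50 for FACIT and -0.30 for transmembrane chains with the label shRNA 1. The log2 fold changes of the 20 collagens named one by one kept their sign with RLE scaling, no filter, the likelihood ratio test, limma-voom and DESeq2. Without 1 shRNA line 3 changed sign: COL5A2 (-0.027 to 0.082), COL12A1 (-0.77 to 0.27) and COL6A1 (-0.14 to 1.09). No paired analysis was possible because the control has 1 library and the lines share no culture number.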
